A study of Mus musculus with 10 samples.

Results

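Interferon-response and antigen-presentation genes were followed in MLL-AF9 leukemia cells in which miR-139 was induced with doxycycline (DOX). The group holds 43 genes taken by symbol: 5 transcription factors, 11 cytosolic RNA sensors and RNA-binding effectors, 5 genes of the ISG15 system and its partners, 10 membrane restriction factors and other effectors, 8 genes of MHC class I presentation and 4 of class II. All 43 were found among the 52550 genes of the count table, and 37 reached 10 counts when the 10 libraries were summed, as did 20269 genes in all. The cells were C57BL/6 bone marrow cells enriched for hematopoietic stem and progenitor cells (HSPCs) and then transformed by a retroviral MLL-AF9 fusion oncogene and carrying the repressor construct pBabe-tetR-KRAB-Hygro, features that every group shared. MLL-AF9-i139 cells carried pCW-miR-139, which expresses miR-139 with DOX. Of these, 3 clones were each sequenced once without and once with 5 µg/mL DOX, given for 48 h in clones 1 and 2 and for 72 h in clone 3. MLL-AF9-ieGFP cells carried pCW-ieGFP, which expresses eGFP with DOX. They were 1 clone, sequenced without and with DOX at 48 h and at 72 h, so its 2 libraries per arm are time points and not separate clones. For the untreated i139 cultures the labels state no hours. In MLL-AF9-i139, clone 3 and the 72 h treatment cannot be told apart.

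Interferons are secreted signals that bind surface receptors, activate JAK kinases and STAT factors, and switch on a broad set of interferon-stimulated genes in almost every cell type. Type I interferons act through a complex of STAT factors and IRF9 that binds the interferon-stimulated response element (ISRE), and interferon gamma acts through STAT dimers that bind the gamma-activated site (GAS). MHC class I molecules display peptides cut by the proteasome and carried by the TAP transporter, and MHC class II molecules display peptides taken up from outside. In myeloid leukemia both arms are followed because they bear on recognition by T cells.

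The induced microRNA gives the 2 mature arms shown here from RefSeq on GRCm38.p6, to identify what the DOX construct expresses, with the seed (bases 2 to 8) in capitals. The 5p arm lies at chr7:101475382-101475403 and the 3p arm at chr7:101475418-101475439, both on the plus strand.
mmu-miR-139-5p: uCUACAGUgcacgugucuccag
mmu-miR-139-3p: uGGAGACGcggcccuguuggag
The row of Mir139 itself was listed at 0 in all 10 libraries and gave no check of the induction.

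RefSeq promoter windows, from 250 bases before to 50 bases after a gene's start, were given for 33 of the 43 members and were searched on both strands for an ISRE-type motif, GAAANNGAAA, and a GAS-type motif, TTCNNNGAA. The ISRE-type letters were found in 15 of the 33 members (45.5%) and in 3.99% of all 27025 genes with a window. The GAS-type letters were found in 10 of the 33 members (30.3%) and in 9.55% of all genes. The members were chosen as interferon-response and antigen-presentation genes, so these shares describe the list and are no result about DOX. The stretches below were chosen to set 3 members called with DOX (Irf1, Oas1a and Ifitm3) beside 4 with ISRE-type letters that were not: Stat2, which was expressed, Isg15 and Ifit1, which were near the detection limit, and B2m, whose listed 0 does not measure its expression. The motif is in capitals, each stretch reads along the gene's strand, and the coordinates are GRCm38.p6. That of Irf1 starts 90 bases before the start and is GAS-type (chr11:53769888-53769967, plus strand), and that of Oas1a starts 14 bases before the start and is ISRE-type (chr5:120907526-120907574, minus strand). The ISRE-type letters of Ifitm3 lie just after its start (chr7:141010706-141010735, minus strand). Those of Stat2 start 222 bases before the start (chr10:128270248-128270320, plus strand), those of Isg15 72 bases (chr4:156200846-156200925, minus strand), those of Ifit1 85 bases (chr19:34640769-34640848, plus strand) and those of B2m 139 bases (chr2:122147513-122147592, plus strand).
Irf1: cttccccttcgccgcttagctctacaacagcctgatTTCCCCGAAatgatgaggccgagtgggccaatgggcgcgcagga
Oas1a: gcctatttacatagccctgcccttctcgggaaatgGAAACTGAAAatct
Ifitm3: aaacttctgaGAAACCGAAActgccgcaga
Stat2: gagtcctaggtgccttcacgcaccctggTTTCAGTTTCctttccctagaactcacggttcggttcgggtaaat
Isg15: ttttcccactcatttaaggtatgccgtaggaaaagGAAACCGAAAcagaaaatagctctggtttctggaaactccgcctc
Ifit1: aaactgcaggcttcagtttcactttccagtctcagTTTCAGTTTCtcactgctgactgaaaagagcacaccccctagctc
B2m: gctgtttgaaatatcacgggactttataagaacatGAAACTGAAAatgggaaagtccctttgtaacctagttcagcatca
On the plus strand of Stat2 and Ifit1 the motif reads as its reverse complement. Of the other called members, Irf2 and Psmb8 held motif letters, and Ifitm1, H2-K1, Tapbp and Psmb9 held neither motif. For Usp18, Parp9 and Parp14 no window was given. A match describes letters in a window and is not a bound site.

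The libraries held between 35133308 and 47089725 counts, so that 3 counts stood for 0.0637 to 0.0854 CPM (counts scaled to a common library total), and intervals and floors of this kind cover counting error only. Levels below are CPM after TMM normalization, and they are compared between libraries and not between genes. The myeloid markers the study stained for were followed by 4 genes: Kit, Fcgr3, Itgam (CD11b) and Ly6g (GR-1). Of these, 3 reached 10 counts when the 10 libraries were summed. Kit lay between 132 and 172 CPM in all libraries, and Fcgr3 is given below. The span of Itgam is covered over 99.9% by another gene, so its level may miss reads in the shared part. Kit and Fcgr3 were among the 3 that reached 10 counts, so either Itgam or Ly6g stayed under 10. The study reported MLL-AF9 cells as positive for both proteins by staining. Levels of Itgam and Ly6g are not listed here, and no further comparison of RNA with the staining was made. The summed markers of T cells were at 0.272 to 0.606 CPM and those of B cells at 0.762 to 1.74 CPM, dendritic cell markers were at 6.28 to 11.1 CPM, and mast cell or basophil markers were at 9.69 to 16.6 CPM. Among the i139 libraries with DOX, clone 3 stood apart over all genes: the chi-square per degree of freedom between libraries was 112 and 96.9 against clones 1 and 2, and 24.8 between clones 1 and 2. Its share of mitochondrial counts, 1.40%, was the highest of the 10 libraries (0.823% to 1.13% in the others). In bulk RNA, fewer cells of a type and less RNA per cell cannot be told apart.

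**Figure D1:**
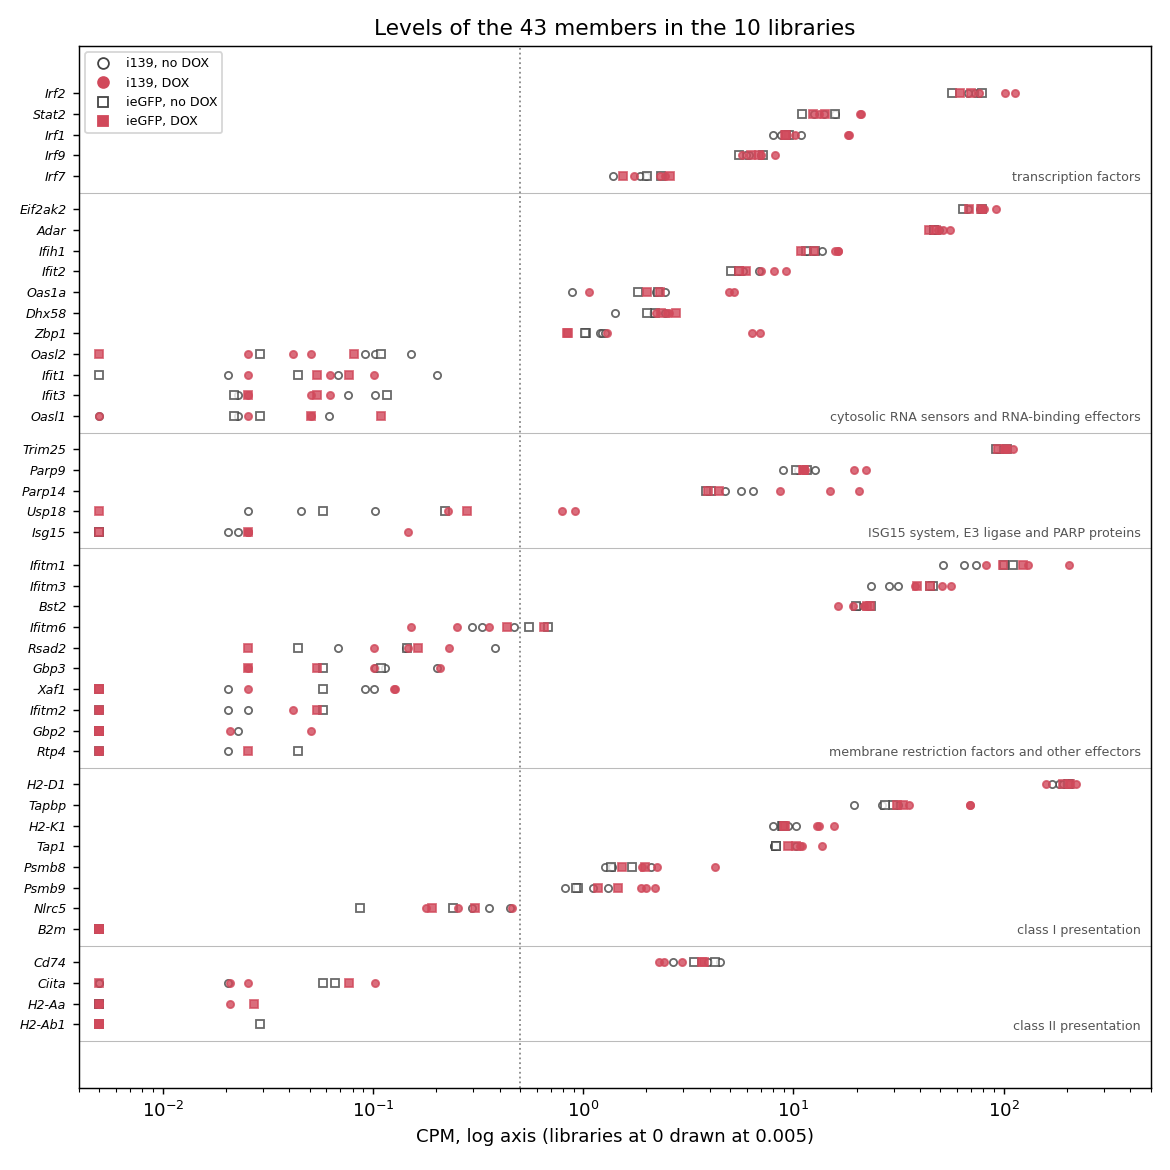
Levels of the 43 members in each of the 10 libraries, in CPM on a log axis, grouped by role. Circles are MLL-AF9-i139, squares MLL-AF9-ieGFP, filled with DOX and open without, and libraries at 0 are drawn at 0.005. The dotted line at 0.5 CPM separates 25 members with a mean at or above it from 18 below it.

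The members split into a part that these cells expressed and a part near the detection limit. The mean over the 10 libraries was at or above 0.5 CPM in 25 members and at or above 10 CPM in 14, and it was below 0.5 CPM in 18. The 18 included textbook interferon-stimulated genes such as Isg15, Ifit1, Ifit3, Oasl2, Rsad2, Gbp2, Gbp3, Xaf1 and Rtp4, and, of class II presentation, H2-Aa, H2-Ab1 and Ciita. Isg15, a ubiquitin-like protein that is joined to other proteins, had 1, 1 and 1 counts without DOX and 7, 1 and 1 counts with DOX in MLL-AF9-i139 clones 1, 2 and 3, and 0, 0, 1 and 0 counts in the 4 MLL-AF9-ieGFP libraries. Ifit1, which binds viral RNA, had 1, 3 and 8 counts without DOX and 3, 1 and 4 counts with DOX. Both genes overlapped no other annotated gene, so these counts are not lowered by shared positions. Ciita, the master activator of class II genes, had between 0 and 4 counts in a library, and Nlrc5, its class I counterpart, had 22, 13 and 14 counts without DOX and 22, 7 and 10 with DOX.

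B2m, the light chain of every class I molecule, was listed at 0 counts in all 10 libraries. Its gene (chr2:122147686-122153083, plus strand) lies entirely inside the span of Patl2 on the opposite strand (chr2:122120108-122186189). Of 1316 protein-coding genes wholly inside the spans of other genes, 95.2% were listed at 0, against 24.9% of 11686 protein-coding genes whose span touches no other gene. The 0 of B2m is therefore no measure of its expression. Other members whose span is largely covered were Ifitm2 (95.7%), Usp18 (62.8%), Psmb8 (57.3%) and Ciita (53.5%), and their levels may miss reads in the shared part. The same holds for Rtp4, named above among the low genes, which is covered over 42.4% of its span. Smaller parts were covered in Tapbp (34.2%), Dhx58 (28.1%), Parp9 (19.1%), Adar (18.9%) and Irf1 (10.8%), with the same limit.

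With the clone left out of the model, no member passed an adjusted p of 0.05 for DOX in MLL-AF9-i139. In that edgeR quasi-likelihood test 12 of 19223 genes were called (0.0624%), and 16 of the 35 members tested had an unadjusted p under 0.05, 15 of them higher with DOX. Over all genes 20.6% had such a p, and 11.4% did and were higher. DESeq2 called 8 members, all higher, against 7.51% of all genes it tested called as higher. With the clone as a block, which compares each clone with itself, edgeR called 12 of the 35 members as higher and 0 as lower, against 7.05% of all tested genes higher and 5.33% lower. The 12 were Irf1, Irf2, Oas1a, Usp18, Parp9, Parp14, Ifitm1, Ifitm3, H2-K1, Tapbp, Psmb8 and Psmb9, with log2 fold changes from 0.45 to 3.39. Between libraries with and without DOX, 14 of the 35 did not overlap and were higher, against 12% of all genes, and 1 was lower, against 12.8%. The median log2 fold change was 0.39 over the 35 members and 0.01 over all genes tested. Below, log2 fold changes and their standard errors come from the fit without the block, each adjusted p is named as with or without it, and "rose" is used for members called with it.

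**Figure D2:**
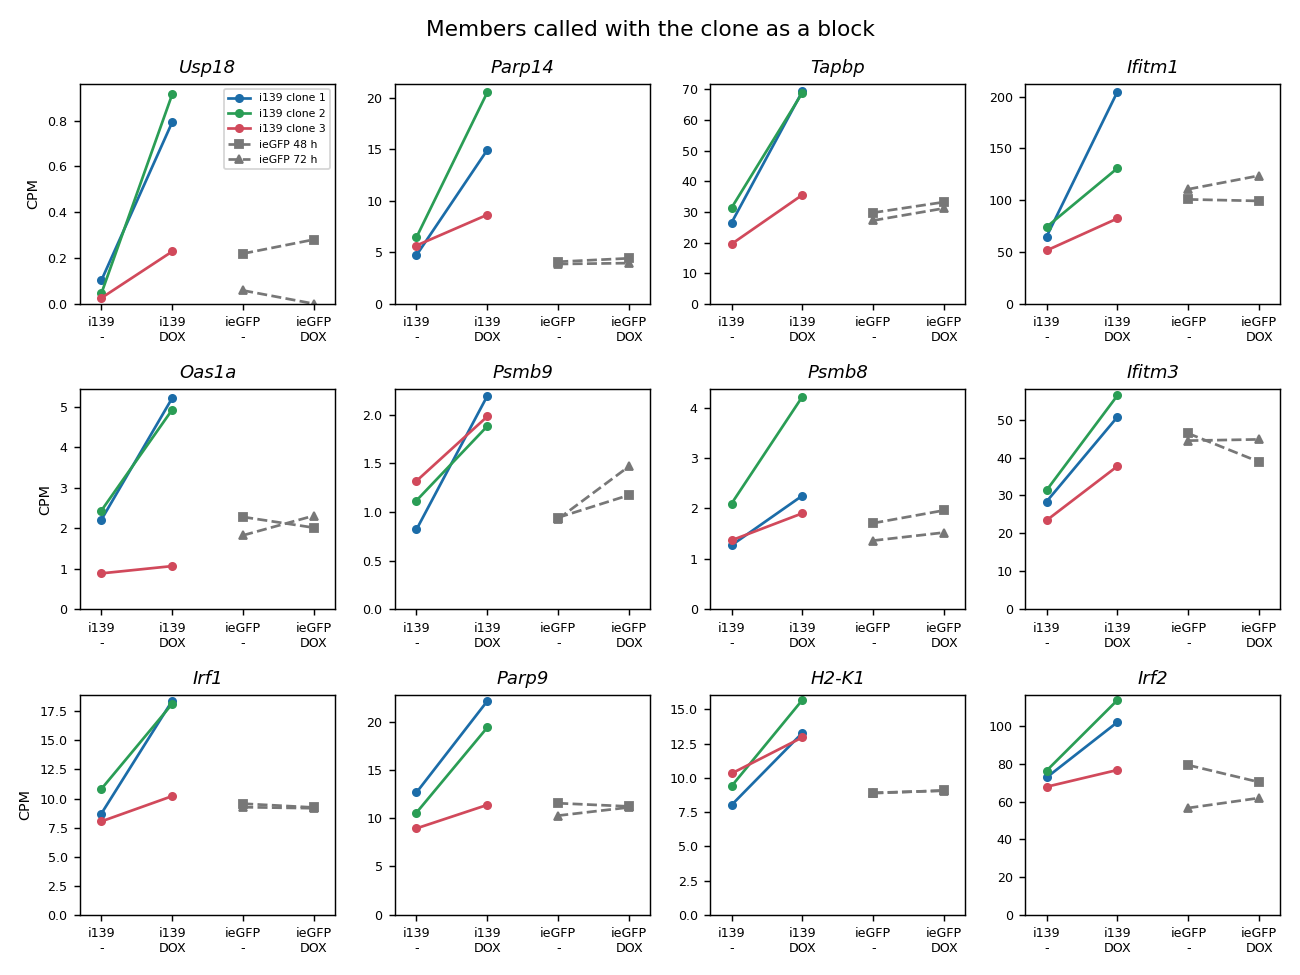
CPM of the 12 members called with the clone as a block, without and with DOX, on linear axes that start at 0. Each line joins the 2 libraries of one MLL-AF9-i139 clone or of the MLL-AF9-ieGFP clone at one time. All 12 rise in every i139 clone, as do 99.7% of all genes called higher with the block. Clone 3 has the smallest rise on the log2 scale in all 12.

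The transcription factors were led by Irf1 and Irf2, paired regulators of which IRF1 activates and IRF2 largely represses interferon-type promoters. Irf1 (chr11:53770014-53778374) stood at 8.71, 10.8 and 8.04 CPM in clones 1, 2 and 3 without DOX and at 18.4, 18.2 and 10.2 CPM with DOX, and at 9.17 to 9.56 CPM in the 4 MLL-AF9-ieGFP libraries. Clones 1 and 2 lay above every other library, and clone 3 with DOX fell within the range without. It rose by a log2 fold change of 0.78 ± 0.25 (SE, n = 3 clones; adjusted p = 0.15 without and 0.0335 with the clone block). Irf2 (chr8:46739732-46847458), the most abundant factor of the list by CPM, went from 72.8, 76.4 and 67.8 CPM to 102, 114 and 76.7 CPM, a log2 fold change of 0.45 ± 0.15 (adjusted p = 0.162 without and 0.0421 with the block). The GAS-type letters of the Irf1 promoter are printed above.

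Stat2, a subunit of the complex that binds the ISRE, had 14.0, 15.8 and 12.6 CPM without and 21.0, 20.8 and 13.2 CPM with DOX. The difference was not called (log2 fold change 0.39 ± 0.20, adjusted p = 0.107 with the block), and it was called without clone 3 (adjusted p = 0.031). Irf7, the factor that amplifies type I interferon production, had 1.99, 1.87 and 1.39 CPM without and 2.32, 2.44 and 1.75 CPM with DOX, and Irf9 had a log2 fold change of 0.15 ± 0.19. Neither passed the test in either fit. In all, 2 of the 5 factors rose, against 7.05% of all genes tested, and the other 3 were not called.

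Among the RNA sensors and RNA-binding effectors, 1 of the 10 tested members rose, against 7.05% of all genes tested. Oas1a, a sensor of double-stranded RNA that makes the messenger activating RNA decay (chr5:120896256-120907521), went from 2.21, 2.44 and 0.887 CPM to 5.22, 4.93 and 1.07 CPM. Clone 3 started lower than the others and changed by 0.25 on the log2 scale, against 1.22 and 1.00 in clones 1 and 2 (adjusted p = 0.357 without and 0.0432 with the block).

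Zbp1, a sensor of Z-form nucleic acids that can trigger cell death, was singled out after its values were seen. It had 1.21, 1.23 and 1.27 CPM without DOX and 6.33, 6.92 and 1.30 CPM with DOX, and between 0.842 and 1.03 CPM in MLL-AF9-ieGFP. The level in clone 3 was nearly the same in both libraries, while the 48 h clones stood far above all other libraries. Its log2 fold change was 1.99 ± 0.55, and its adjusted p was 0.0502 with the block, 0.124 without it and 0.00261 in DESeq2. Without clone 3 the adjusted p was 0.000528.

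Eif2ak2, the kinase PKR that halts translation on double-stranded RNA and the member of this list with the highest CPM, had 79.4, 67.5 and 76.9 CPM without and 92.1, 80.8 and 79.1 CPM with DOX. The groups overlapped slightly and the difference was not called (log2 fold change 0.18 ± 0.11, adjusted p = 0.195 with the block). Ifih1, the sensor MDA5, had a log2 fold change of 0.37 ± 0.13 (adjusted p = 0.0755 with the block), and Ifit2 one of 0.44 ± 0.19 (adjusted p = 0.0687). For Adar, an RNA editing enzyme, it was 0.13 ± 0.10, and for Dhx58 0.28 ± 0.26. The effectors near the detection limit, Ifit1, Ifit3, Oasl1 and Oasl2, stayed at or under 0.203 CPM in every library.

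The ISG15 system and its partners held 3 rises in 5 members, against 7.05% of all genes tested. Usp18 removes ISG15 from proteins and dampens the type I receptor (chr6:121245906-121270917). It had 5, 2 and 1 counts without DOX and 38, 36 and 9 counts with DOX, or 0.102, 0.0456 and 0.0253 CPM against 0.794, 0.915 and 0.229 CPM, and 10, 2, 11 and 0 counts in MLL-AF9-ieGFP (48 h and 72 h without, then 48 h and 72 h with DOX). All libraries with DOX lay above those without, on few reads, and the highest MLL-AF9-ieGFP library exceeded i139 clone 3 with DOX. The log2 fold change was 3.39 ± 0.68 (adjusted p = 0.0955 without and 0.0179 with the block). The antisense gene Gm44148, looked up after these values were seen, covers 62.8% of its span and had 28, 27 and 8 counts without and 51, 45 and 17 with DOX. The strand setting of the counting is not given in the sources used here. Reads in the shared part may be missing from both genes, as for B2m, so that these counts may cover only the unshared parts. Whether reads of one gene were counted for the other was not tested.

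Parp14 and Parp9 are ADP-ribosyltransferases that lie within a short stretch of chromosome 16 (chr16:35832874-35871544 and chr16:35938470-35972605). Parp14 went from 4.71, 6.45 and 5.65 CPM to 14.9, 20.5 and 8.64 CPM and Parp9 from 12.7, 10.6 and 8.95 CPM to 22.1, 19.4 and 11.4 CPM. For Parp14 every library with DOX exceeded every library without, while Parp9 in clone 3 with DOX fell within the untreated range. The log2 fold changes were 1.40 ± 0.31 and 0.73 ± 0.26, with adjusted p of 0.025 and 0.0296 with the block and of 0.1 and 0.175 without. Trim25, a ubiquitin ligase that activates RIG-I, had 93.8, 93.4 and 97.2 CPM without and 103, 111 and 102 CPM with DOX. Its groups did not overlap, but the change was small and not called (log2 fold change 0.16 ± 0.09, adjusted p = 0.222 with the block).

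Of the membrane restriction factors and other effectors, 2 of 7 tested members rose, against 7.05% of all genes tested. A further 3 of the 10 listed had under 10 counts in all. Ifitm1 and Ifitm3 are small membrane proteins that block the entry of enveloped viruses, and lie near each other on chromosome 7 (chr7:140967221-140969825 and chr7:141009586-141010770). Ifitm1 went from 64.9, 74.2 and 51.5 CPM to 205, 131 and 82.4 CPM, and Ifitm3 from 28.4, 31.4 and 23.4 CPM to 50.7, 56.4 and 37.7 CPM. Neither gene overlapped between the groups. The log2 fold changes were 1.15 ± 0.30 and 0.81 ± 0.18, with adjusted p of 0.0258 and 0.0121 with the block and of 0.12 and 0.1 without it.

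The MLL-AF9-ieGFP clone stood higher than the untreated i139 clones for both genes. Without DOX it had 101 and 111 CPM of Ifitm1 and 46.3 and 44.4 CPM of Ifitm3 at 48 h and 72 h, above all 3 untreated i139 clones. With DOX it had 99.3 and 124 CPM of Ifitm1 and 38.8 and 44.8 CPM of Ifitm3, so that the i139 libraries with DOX overlapped with this clone. Bst2, the tether that holds budding viruses, was not called (log2 fold change -0.12 ± 0.14), although with the block and without clone 3 it was called lower (-0.23 ± 0.08, adjusted p = 0.0238). Not called either were Ifitm6, Rsad2, Gbp3 and Xaf1, which stayed under 0.7 CPM in every library.

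In class I presentation, 4 of the 7 tested members rose, against 7.05% of all genes tested. All 4 lie close together in the MHC region of chromosome 17. Tapbp encodes tapasin, which loads peptides onto class I molecules (chr17:33915899-33929292). It went from 26.5, 31.3 and 19.5 CPM to 69.4, 69.0 and 35.6 CPM, with no overlap of the groups (log2 fold change 1.18 ± 0.28, adjusted p = 0.105 without and 0.0107 with the block). H2-K1, a classical class I heavy chain (chr17:33996017-34000347), went from 8.01, 9.39 and 10.3 CPM to 13.3, 15.7 and 13.0 CPM (log2 fold change 0.61 ± 0.16, adjusted p = 0.121 without and 0.0346 with the block).

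Psmb8 and Psmb9 encode catalytic subunits of the immunoproteasome, which cuts peptides suited to class I molecules. Psmb8 (chr17:34197721-34201454) went from 1.27, 2.10 and 1.37 CPM to 2.26, 4.22 and 1.91 CPM, with overlap between the groups. Psmb9 (chr17:34181987-34187764) went from 0.820, 1.12 and 1.32 CPM to 2.19, 1.88 and 1.98 CPM, with none. Their log2 fold changes were 0.84 ± 0.36 and 0.91 ± 0.25, with adjusted p of 0.0422 and 0.0446 with the block and of 0.239 and 0.125 without. Tap1, a subunit of the peptide transporter whose start faces that of Psmb9, had a log2 fold change of 0.43 ± 0.18 and missed the threshold (adjusted p = 0.0518 with the block).

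H2-D1, the other classical class I heavy chain and the member with the highest CPM (chr17:35262730-35267499), was not called. It had 184, 191 and 171 CPM without and 204, 222 and 159 CPM with DOX, and 191 to 207 CPM in MLL-AF9-ieGFP (log2 fold change 0.11 ± 0.13, adjusted p = 0.499 with the block). The sign differed between clones: 0.15 and 0.22 on the log2 scale in clones 1 and 2, and -0.10 in clone 3. H2-K1 and H2-D1 are related in sequence, and reads shared between them could be split or dropped by the counting. The difference between the changes of the 2 genes was not tested.

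Class II presentation was near the detection limit but for Cd74. This gene, for the invariant chain that guides class II molecules, was the only one of 4 members tested in MLL-AF9-i139, with 4.47, 2.69 and 3.93 CPM without and 2.42, 2.29 and 2.95 CPM with DOX, and 3.35 to 4.24 CPM in MLL-AF9-ieGFP. All 3 clones were lower with DOX, but the groups overlapped and the difference was not called (log2 fold change -0.52 ± 0.25, adjusted p = 0.282 without and 0.119 with the block). With the block and without clone 3 it was called lower (log2 fold change -0.56, adjusted p = 0.0282). The chains H2-Aa and H2-Ab1 had no more than 1 count in any library.

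**Figure D3:**
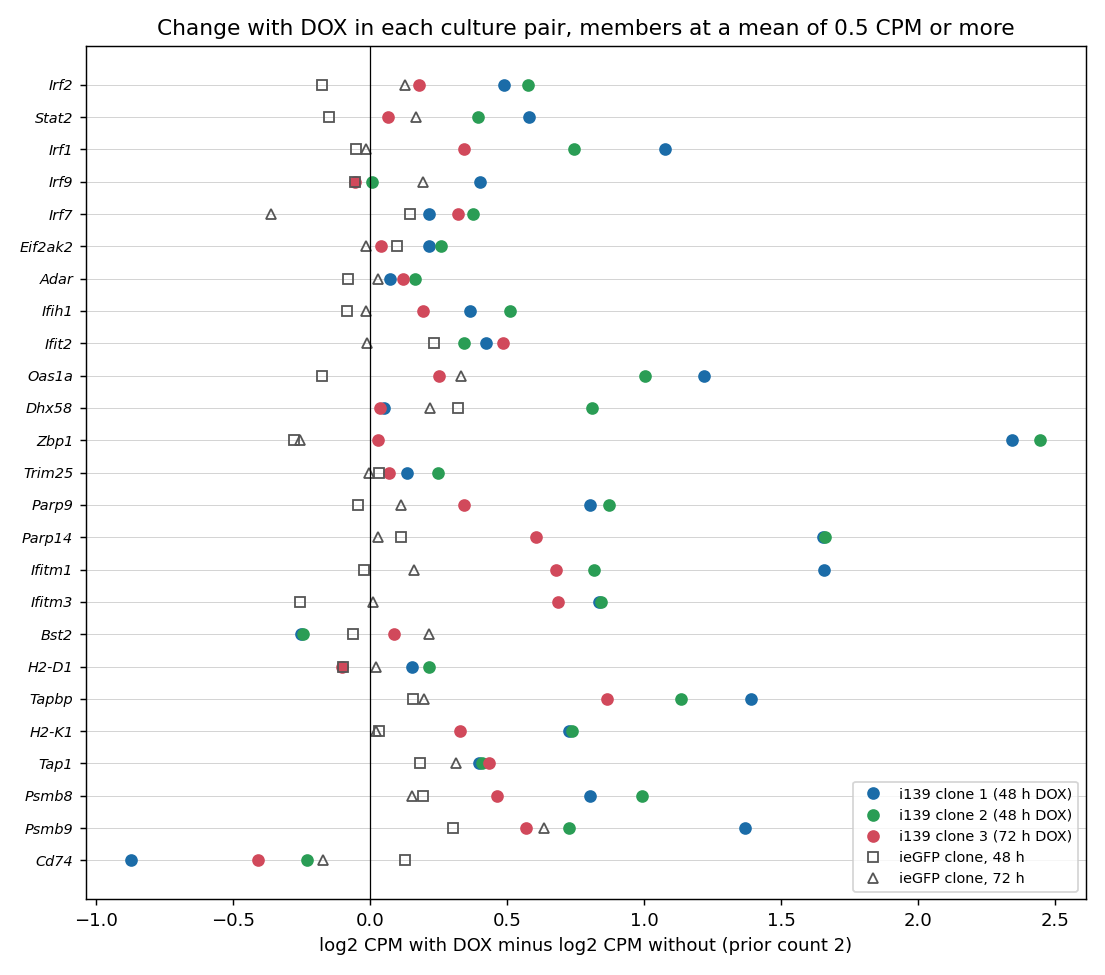
Change with DOX in each pair of cultures, as a difference of log2 CPM, for the 25 members with a mean of 0.5 CPM or more. Filled circles are the 3 MLL-AF9-i139 clones and open symbols the MLL-AF9-ieGFP clone at 48 h (squares) and 72 h (triangles). Clones 1 and 2 reach furthest for Zbp1, at 2.34 and 2.44, and the median of the 35 tested members is 0.49, 0.39 and 0.12 in clones 1, 2 and 3.

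The size of the rise differed between the clones. The median difference of log2 CPM with DOX over the 35 tested members was 0.49 in clone 1, 0.39 in clone 2 and 0.12 in clone 3, where the median of all 19223 genes was -0.02, 0.01 and 0.00; the latter lie near 0 because the normalization centres each library. All 12 called members were higher with DOX in each of the 3 clones, and all 12 changed less in clone 3 than in either other clone. The change in clone 3 was between 22.8% (Oas1a) and 81.6% (Ifitm3) of the mean change of clones 1 and 2 on the log2 scale, with a median of 48.1%. Of all 1356 genes called higher with the block, 99.7% were above 0 in all 3 clones, so the shared sign of the 12 comes with the call. Of the 1356, 86.1% changed less in clone 3 than in either other clone, and the median kept was 46.5%. Members differed in this: Ifitm3 and Tapbp (68.5%) kept most of the change in clone 3, and Zbp1 1.27% of it. Without clone 3, edgeR called 13 members as higher and 0 as lower, against 11.6% and 10.1% of all genes. With the block and without clone 3 it called 20 as higher, all 12 among them, and 2, Bst2 and Cd74, as lower, against 22.5% and 20.9% of all genes. The difference between clone 3 and the others was not tested, since it rests on 1 clone.

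In MLL-AF9-ieGFP no member was called. The fit of all 10 libraries called 0 of 20269 genes for DOX in this clone (0%), and no member had an unadjusted p under 0.05 (lowest 0.122). DESeq2 called 0 members. The median log2 fold change of the 37 members was 0.03, and the fitted change over both times was at most 0.50 in size among the 12 genes above, that value being of Psmb9 (0.50 ± 0.30). Psmb9 changed by 0.30 at 48 h and by 0.64 at 72 h, above the 0.57 of i139 clone 3, and Oas1a by -0.17 and 0.33. In the pairs at 48 h and 72 h, Irf1 changed by -0.05 and -0.01 and Parp14 by 0.11 and 0.03 on the log2 scale. H2-K1 changed by 0.03 and 0.02 and Tapbp by 0.16 and 0.20. Usp18 changed by 0.30 and -1.14, on a handful of counts.

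**Figure D4:**
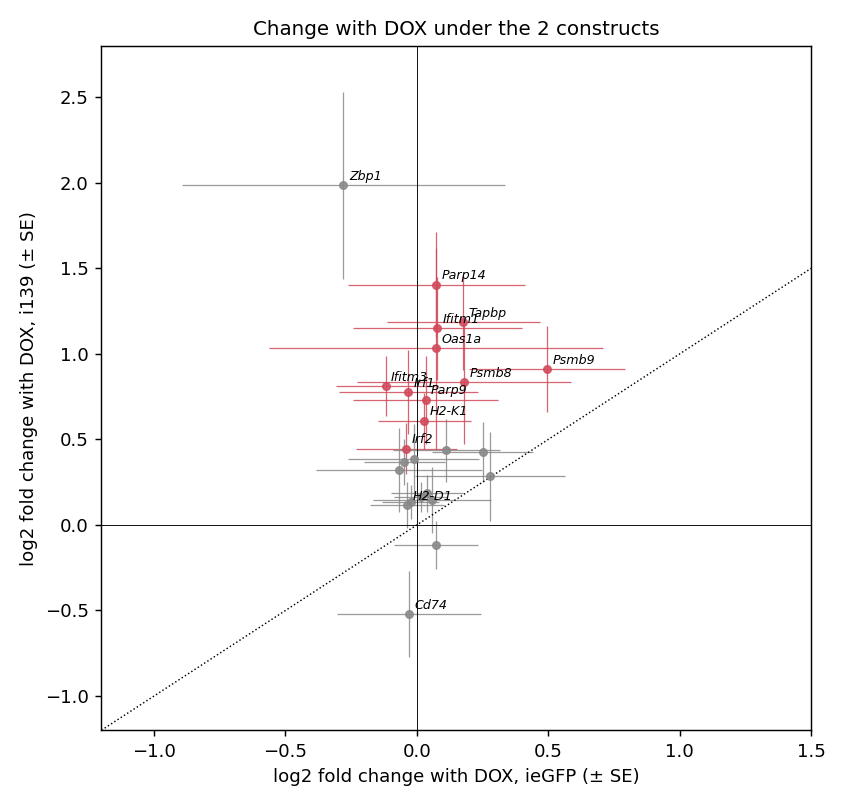
Log2 fold change with DOX in MLL-AF9-i139 (vertical) against MLL-AF9-ieGFP (horizontal), each with its standard error, for the 25 members with a mean of 0.5 CPM or more, so Usp18 is not drawn. Red points are members called in i139 with the clone block, and the dotted line marks equal change. All red points lie above the line, and Psmb9 is nearest to it at 0.91 against 0.50.

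The difference between the constructs was tested as the interaction of DOX with the construct. Without a block 1 of 20269 genes (0.00493%) and no member were called, though 8 members had an unadjusted p under 0.05, all with a larger change in i139, against 9.17% of all genes with such a p and 4.96% with it and a larger change in i139. DESeq2 called 0 members. With clone and time as a replicate block, Ifitm3 was the only member called, with a difference in log2 fold change of 0.91 ± 0.13 (adjusted p = 0.032), against 0.163% of all genes called as higher in i139. Tapbp followed at an adjusted p of 0.0526. Across the 12 genes the difference ranged from 0.40 (Psmb9) to 3.40 (Usp18) without the block. Leaving out 1 library pair gave 0.17 (without i139 clone 1) to 0.61 (without i139 clone 3) for Psmb9, with 0.27 without the ieGFP 48 h pair, and 2.92 (without i139 clone 2) to 7.75 (without the ieGFP 48 h pair) for Usp18. Without i139 clone 3, 7 members were called, namely Irf1, Zbp1, Parp9, Parp14, Ifitm1, Ifitm3 and Tapbp, against 5.74% of all genes. The construct and the clone cannot be told apart in MLL-AF9-ieGFP.

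With the hours of DOX matched, the difference between constructs in the change of log2 CPM was given as values with no test. The untreated i139 cultures may not match in time, and in ieGFP the untreated library at 72 h differed from that at 48 h by -0.49 for Irf2 and -0.52 for Stat2 on the log2 scale. At 48 h, the mean of i139 clones 1 and 2 minus ieGFP was 2.67 for Zbp1, 2.62 for Usp18 (on few counts), 1.55 for Parp14, 1.29 for Oas1a, 1.26 for Ifitm1, 1.10 for Tapbp, 1.09 for Ifitm3, 0.96 for Irf1 and 0.88 for Parp9. It was between 0.70 and 0.75 for H2-K1, Psmb8, Irf2 and Psmb9. At 72 h, clone 3 minus ieGFP was 3.05 for Usp18 (on few counts), 0.67 for both Tapbp and Ifitm3, 0.58 for Parp14 and 0.52 for Ifitm1. For Zbp1, H2-K1, Psmb8, Irf1 and Parp9 it was between 0.23 and 0.36. For Irf2, Oas1a and Psmb9 it was 0.05, -0.08 and -0.06.

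The other genes of the pathway were taken from lists of ligands, receptors, sensors and further interferon-stimulated genes. Without the clone block, edgeR called no gene of these lists or of the further class I and class II lists below. For the genes named by the rule, the adjusted p without the block ran from 0.0845 (Ddx58 and Uba7) to 0.21 (Psme1). Each adjusted p given below for the DOX change of a pathway gene is with the block. All 9 interferon ligands searched had 0 counts in every library. For Ifnb1, Ifna1, Ifna2, Ifna4 and Ifne, whose spans overlap no other gene, this allows up to 0.0637 to 0.0854 CPM in a library. Ifnk, Ifnl2 and Ifnl3 lie entirely inside other genes and Ifng is covered over 56.2% of its span, so their counts of 0 carry the same limit as that of B2m. Of 11 receptor and JAK-STAT genes, all tested, 4 rose with the clone block and 0 fell, against 7.05% and 5.33% of all genes, with a median log2 fold change of 0.42. Jak2, a kinase of the interferon gamma and cytokine receptors, went from 25.4, 20.6 and 19.9 CPM to 53.8, 45.8 and 28.9 CPM (log2 fold change 0.98 ± 0.23, adjusted p = 0.0215 with the block). Jak1, which serves all interferon receptors, went from 171, 166 and 160 CPM to 246, 240 and 196 CPM (0.47 ± 0.11, adjusted p = 0.0278). Socs3, which inhibits cytokine receptor signalling, went from 1.52, 1.14 and 2.31 CPM to 3.36, 2.67 and 4.50 CPM (1.10 ± 0.32, adjusted p = 0.0225).

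Of 15 nucleic acid sensing and IRF genes found, 12 were tested and 5 rose, with 0 lower, against 7.05% and 5.33% of all genes tested. Ddx58, which encodes RIG-I, went from 14.0, 13.3 and 12.01 CPM to 34.6, 39.3 and 21.6 CPM (1.30 ± 0.22, adjusted p = 0.0152 with the block). Tlr7, the endosomal sensor of single-stranded RNA, went from 1.09, 0.798 and 1.39 CPM to 10.1, 7.58 and 1.98 CPM (2.60 ± 0.56, adjusted p = 0.035), with little change in clone 3. Irf4, a factor of lymphoid and dendritic lineages, went from 4, 1 and 2 counts to 28, 15 and 12 counts (2.96 ± 0.53, adjusted p = 0.0238). None of the 3 was called in MLL-AF9-ieGFP, where the log2 fold changes were -0.02, 0.10 and 0.37.

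Of 56 further interferon-stimulated genes found, 40 were tested, of which 11 rose and 2 fell, against 7.05% and 5.33% of all genes tested. Uba7, the enzyme that activates ISG15 for conjugation, went from 6.27, 6.29 and 4.49 CPM to 23.8, 22.7 and 11.3 CPM (1.77 ± 0.30, adjusted p = 0.00915 with the block), and was the only gene of this list called in the blocked test of the interaction (adjusted p = 0.0359). Ifi27 went from 6.87, 4.92 and 5.02 CPM to 25.5, 19.2 and 11.1 CPM (1.74 ± 0.30, adjusted p = 0.0121). Ifi27l2a went from 3, 1 and 1 counts to 29, 14 and 3 counts (3.14 ± 0.84, adjusted p = 0.0271), and in clone 3 the gain was of 2 counts. The 2 that fell were Cmpk2 and Pnpt1, named here after their values were seen.

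**Figure D5:**
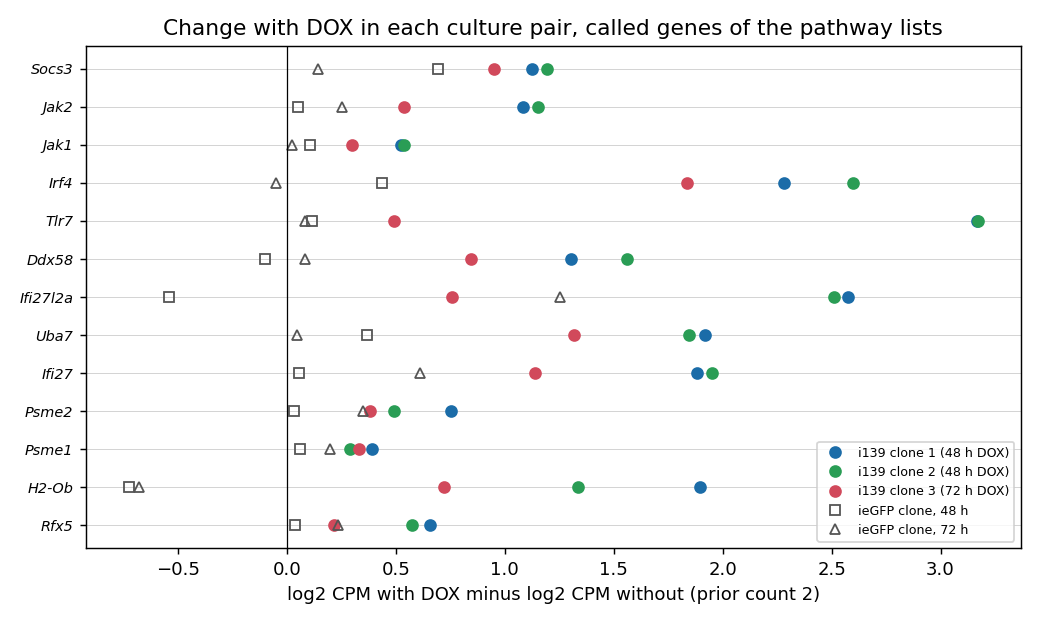
Change with DOX in each pair of cultures, as a difference of log2 CPM, for the 13 pathway genes outside the 43 members that were named by the rule. Filled circles are MLL-AF9-i139 clones and open symbols the MLL-AF9-ieGFP clone at 48 h (squares) and 72 h (triangles). All 13 lie above 0 in each i139 clone, as do 99.7% of all genes called higher with the clone block. Tlr7 changes by 3.17 in clones 1 and 2 and by 0.49 in clone 3.

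Further genes of class I presentation numbered 16, of which 11 were tested. The proteasome activator subunits Psme2 and Psme1 rose, so 2 rose and 0 fell, against 7.05% and 5.33% of all genes tested. Psme2 went from 23.5, 25.2 and 22.4 CPM to 39.7, 35.3 and 29.2 CPM (0.57 ± 0.14, adjusted p = 0.0282 with the block), and Psme1 had a log2 fold change of 0.35 ± 0.14 (adjusted p = 0.0396). Of 15 further class II genes, 13 were tested and 2, Rfx5 and H2-Ob, rose, with 0 lower, against the same shares of all genes. Rfx5, a factor that binds class I and class II promoters, went from 10.6, 12.2 and 10.7 CPM to 16.7, 18.1 and 12.5 CPM (0.51 ± 0.17, adjusted p = 0.0493). H2-Ob, a chain of the peptide-editing modulator H2-O, went from 18, 12 and 12 counts to 72, 30 and 21 counts (1.58 ± 0.43, adjusted p = 0.0321), and in MLL-AF9-ieGFP it had 13 and 7 counts without and 6 and 4 with DOX.

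With the block, edgeR called 0 of 2 T cell, 0 of 3 B cell, 0 of 6 dendritic cell and 0 of 2 macrophage markers tested. It called 1 of 3 mast cell or basophil markers, against 7.05% of all genes called higher and 5.33% lower. The low-affinity receptor gene Fcgr3, one of the markers the study stained for and singled out after its values were seen, went from 89.2, 96.9 and 79.0 CPM to 312, 269 and 99.2 CPM in clones 1, 2 and 3 (log2 fold change 1.37 ± 0.36, adjusted p = 0.0332 with the block). The 6 macrophage markers summed to between 2.15 and 2.99 CPM without and between 2.36 and 9.61 CPM with DOX in MLL-AF9-i139, with C1qa, C1qc and Marco at 0 in all libraries and 2 tested. Neither was called with all clones kept: Adgre1 went from 1.97, 1.46 and 0.786 CPM to 9.19, 3.66 and 0.787 CPM (adjusted p = 0.0562 with the block), and Mertk had a log2 fold change of -0.55 ± 0.51. Without clone 3 and without the block, edgeR called Adgre1 higher with DOX, against 11.6% of all genes. It also called Adgre1 in the interaction, against 5.74% of all genes called as higher in i139. The sum of the mast cell or basophil markers was 9.94 to 12.1 CPM without and 14.95 to 16.6 CPM with DOX. Of these markers, 1 of 3 tested was called higher, against 7.05% of all genes tested. This was Mcpt8 (0.70 ± 0.16, adjusted p = 0.0236 with the block), which made up most of the sum, while Ms4a2 had a log2 fold change of -0.76 ± 0.28 and was not called. The part of these in the rises of the members was not tested.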

How the data were processed

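RNA was sequenced from 10 libraries of MLL-AF9-i139 and MLL-AF9-ieGFP cells after RiboErase depletion. Per the labels and methods the authors mapped reads to GRCm38 with STAR 2.5.3e and counted them with featureCounts 1.6.0 on a GENCODE annotation, and they deposited raw counts per gene. The 2 deposited tables hold the same values for these libraries, and 14 columns of other samples were not used. Symbols came from a table that matched 52403 of 52550 identifiers.

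Counts were fitted with edgeR 4.0.16 (TMM, quasi-likelihood test, R 4.3.3) for genes with at least 10 counts: the 6 MLL-AF9-i139 libraries, and 4 groups over all 10 libraries for MLL-AF9-ieGFP and the interaction. P-values were adjusted with Benjamini-Hochberg over all genes and called under 0.05. Differences of log2 CPM used a prior count of 2. Clone numbers in the titles pair the libraries: deviations from group means correlated at 0.269 to 0.393 within clones and -0.297 to -0.0382 between clones. Deviations in a group sum to 0, so positive values within clones pull those between clones below 0. The negative range is therefore no separate support for the pairing. Alternatives were the clone block, DESeq2 1.42.0, RLE size factors, other filters, other sets of libraries and leaving out each clone. The scripts were tested on simulated data. Nothing states separate animals, so p-values measure the spread between these cultures.

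Members and lists were chosen with earlier results of these data known. Values in every library were given for members called with or without the block (at most 12), the member with the highest CPM of each list and 11 set genes, and for up to 3 called genes of each pathway list. Gene spans came from GENCODE M21 on GRCm38, and promoters and miR-139 from RefSeq.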

Additional observations from a re-analysis of the deposited data

Results flagged for a closer look

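Ifitm3 was the only member whose change with DOX differed between MLL-AF9-i139 and MLL-AF9-ieGFP by a test of the difference itself, the interaction in edgeR with clone and time as a replicate block. The change was larger in i139 by 0.912 on the log2 scale (SE 0.133, adjusted p = 0.032). Ifitm3 was higher with DOX in 3 of 3 i139 clones, as were 99.7% of all genes called higher for DOX with the clone block. Without the block the adjusted p was 0.527. The ieGFP blocks are the 48 h and 72 h pairs of 1 clone, so the standard error holds no spread between ieGFP clones. The construct and the clone cannot be told apart there. The untreated ieGFP libraries stood above the untreated i139 clones for this gene, and the part of that difference in the result was not tested.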

How the results depend on the processing

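The number of members called for DOX in MLL-AF9-i139 was 0 as fitted. It was 8 in DESeq2, 8 in the fit of all 10 libraries, 6 with no filter beyond 1 count, and 12 with the replicate block by clone. Leaving out 1 clone gave 0 to 13, with 13 when clone 3 was left out. With the block and 1 clone left out, an alternative chosen after seeing the data, it was 5 to 22, with 22 without clone 3, of which 20 were higher and 2 lower (Bst2 and Cd74). RLE size factors and a filter of 10 counts in 3 libraries gave 0. Over all genes the count was 12 as fitted, and 1556 in DESeq2, 1234 in the fit of all 10 libraries, 562 with no filter beyond 1 count, 6 with 10 counts in 3 libraries, 2381 with the block, 0 to 3981 without 1 clone, and 324, 580 and 7974 with the block and without clone 1, 2 or 3. No member was called in MLL-AF9-ieGFP under any alternative run. In the interaction 0 members were called as fitted, 1 with the replicate block, and 0 to 7 with 1 library pair left out, 7 without i139 clone 3. The 18 members and 13 pathway genes re-examined kept their direction in every alternative, and the causes of the shifts in these counts were not tested. Depth limits the members under 0.5 CPM, where a library holds a few counts.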
